A study of Mus musculus with 15 samples.

Results

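The BCL2 family decides, at the outer membrane of the mitochondrion, whether a stressed cell survives or dies. Its survival members (Bcl2, Bcl2l1, whose main product is BCL-XL, and Mcl1) bind and hold the killers BAK and BAX, which otherwise open the membrane and release cytochrome c. The BH3-only members (Bcl2l11, which encodes BIM, Bmf, Bbc3, which encodes PUMA, Pmaip1, which encodes NOXA, and Bid) carry a single short BH3 helix and tip the balance towards death by occupying the survival proteins or by switching on BAK and BAX. Glucocorticoids are known for killing immature lymphoid cells, where the induction of BIM is part of the response, and for protecting mammary epithelial cells, where the induction of BCL-XL has been described.

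Transcripts of this family were followed by name, from a list of 10 genes: the 3 survival genes, the 5 BH3-only genes, and the effectors Bax and Bak1. A value under its own name was found for 9 of the 10, out of 15025 genes in all, and Bax was not analysed here. All 9 were bright enough on the arrays to be tested, among 9919 such genes, because their highest group mean reached log2 6.59, the 40th percentile of all values. Pmaip1 did so in 1 of 8 groups only, with a highest group mean of 6.60, and Bbc3 in 6 of 8, while the other members did so in all 8.

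RNA came from 2 mouse lines. The 3134 line (strain RIII) was obtained by transforming C127 cells, which go back to a mammary adenocarcinoma. AtT-20 (strain LAF1) is a line of pituitary corticotrophs, the cells that make the hormone precursor Pomc. Both had been kept in serum stripped of steroids with charcoal and dextran before treatment. They then received dexamethasone, a drug that activates the glucocorticoid receptor, at 100 nM. RNA was taken after 2, 4 or 8 h, with cells at 0 h as the control. The labels call the 0 h cells both untreated and vehicle treated. No arrays of cells kept for 2, 4 or 8 h without dexamethasone were among the 15 analysed, so effects of the hormone and of time in culture cannot be told apart. Each of the 8 groups had 2 arrays, except AtT-20 at 8 h with 1. Within each line the arrays were split here into 2 runs, inferred from the order of the serial numbers that their titles carry. The lower numbers were taken as the first run (replicate 1) and the higher numbers as the second (replicate 2). No label names a run, so every result below that uses the run rests on this inference. Nothing in the labels says whether the replicates were grown as separate cultures. The p-values then cover the spread among these arrays alone, and that spread may be technical.

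The lines were checked against markers at 0 h. All 6 corticotroph markers measured were above log2 6.59 in AtT-20 (Pomc 13.23) and none was in 3134. In 3134, only 2 of 8 mammary epithelial markers, Krt8 and Krt14, were above it (highest 7.03), and Epcam, Cdh1 and Krt18 were below it. All 7 mesenchymal markers were above it in 3134, with Vim at 13.22. In AtT-20, 2 of the 8 epithelial markers were above it, Krt8 (11.68) and Krt18 (9.97). Of the 7 mesenchymal markers, 2 were above it in AtT-20, Twist1 (8.34) and Col1a1 (6.66). Of the immune and endothelial markers, Cd68 and Cdh5 were above it in 3134 and none was in AtT-20, and none of 6 markers of other pituitary cells was above it in either line. Known glucocorticoid-induced genes were higher after dexamethasone. All 8 such control genes tested rose in 3134 over the mean of 2, 4 and 8 h (median log2 fold change 2.76), and 3 of the 8 did so in AtT-20 over the mean of 2 and 4 h. Fkbp5, a co-chaperone of the receptor, rose by log2 2.84 ± 0.126 (SE) in 3134 and by 0.91 ± 0.134 in AtT-20. Values below are log2 levels of a gene, the median over its exon probesets, or log2 fold changes between group means. Every p is from limma, adjusted over the 9919 genes unless called unadjusted. Other scales, gene summaries and filters, and the probeset test, adjust over their own sets of genes. A gene is called where its adjusted p is under 0.05. The RNA is that of a whole culture, so a change in some cells and a change in all cannot be told apart. Levels of different genes are not compared, since probes differ in brightness.

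**Figure D1:**
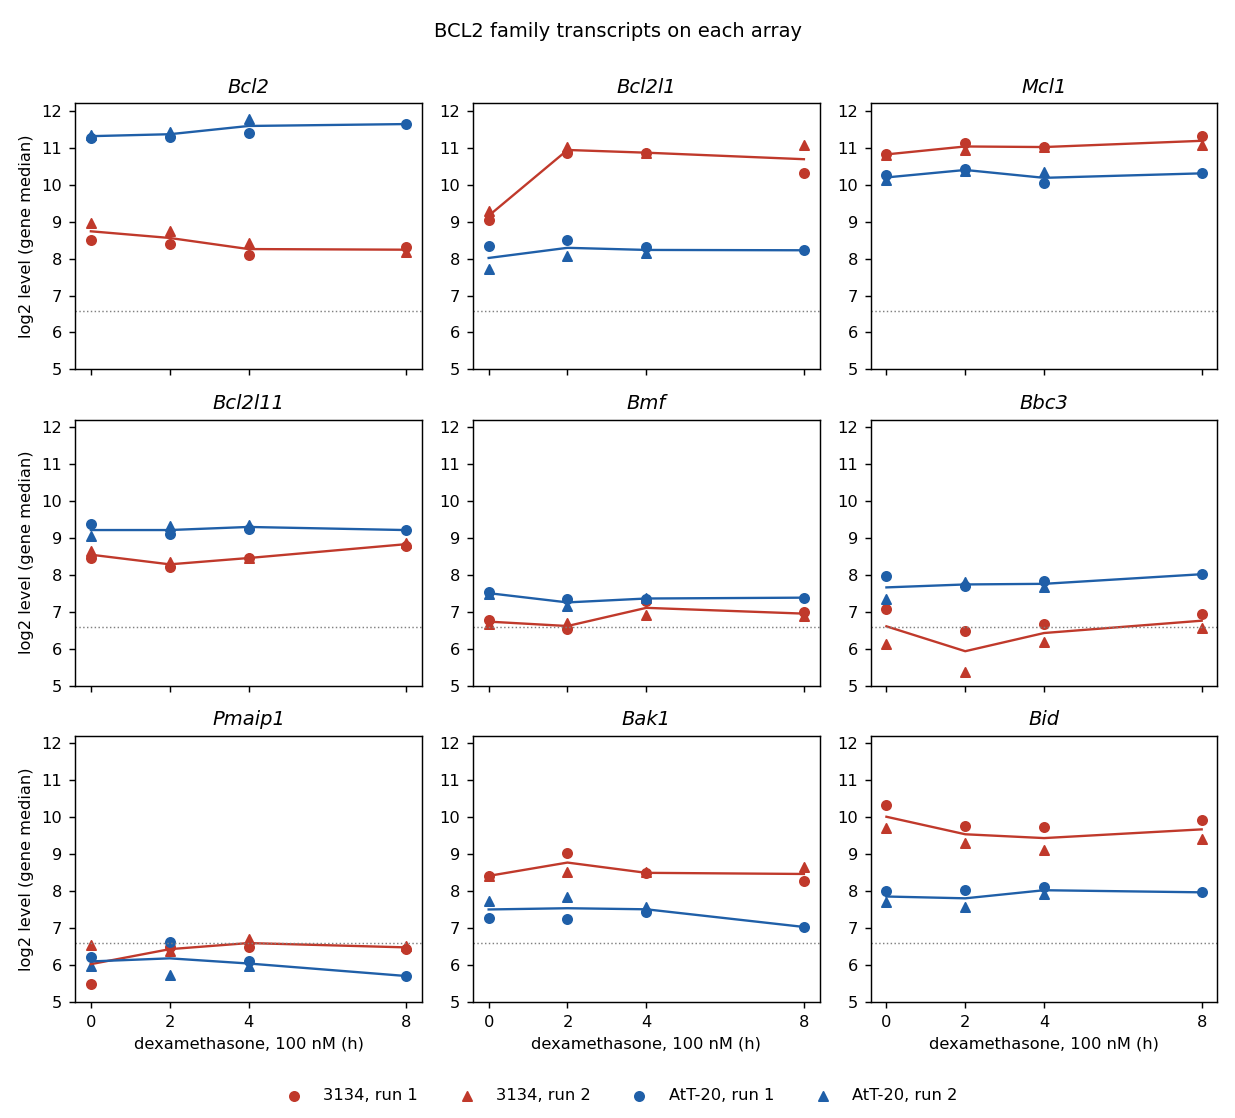
Log2 level of each of 9 BCL2 family genes (vertical axis) on each of the 15 arrays against hours in 100 nM dexamethasone (horizontal axis). Red marks 3134 and blue AtT-20, circles the first run and triangles the second, lines join group means, and the dotted line is log2 6.59. Bcl2l1 goes from 9.16 to 10.94 within 2 h in 3134 and stays near 8 in AtT-20, and Bcl2 is over 2 log2 units higher in AtT-20 than in 3134 at 0 h.

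Among the survival genes, Bcl2l1 rose in 3134 at every time measured. In the fit without the run, Bcl2l1 was the only one of the 9 members called there against 0 h. With the run as a block, Bid was called as well, at 4 h and over the mean of the times. The level of Bcl2l1 on the 0 h arrays was 9.03 and 9.28. It was 10.85 and 11.02 at 2 h, 10.87 and 10.87 by 4 h, then 10.31 and 11.07 at 8 h. All 6 treated arrays lay above both controls by more than 1 log2 unit, and the lowest of them was the first-run array at 8 h. At 2 h the rise was log2 1.78 ± 0.267 (SE), or 3.44-fold (limma adjusted p = 0.00567). After 4 h it was 1.71 ± 0.267 (adjusted p = 0.00496), and after 8 h 1.53 ± 0.267 (adjusted p = 0.0107). The rise was present by the first time sampled and did not differ detectably between 8 h and 2 h (difference -0.25, 95% interval -0.83 to 0.33). Over the mean of the 3 times Bcl2l1 rose by 1.67 ± 0.218 (adjusted p = 0.00101), the 41st largest rise of 9919 genes.

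Of all tested genes, 1.23% were called in 3134 at 2 h, 1.91% at 4 h, 2.19% at 8 h and 2.42% over the mean, and 1 of 9 members was called in each. With the run as a block in the fit these shares were 3%, 5.19%, 7.9% and 6.55%, and 1, 2, 1 and 2 members were called. The median fold change of the members over the mean was 0.16, beside -0.02 for all genes. Single arrays were left out only in fits without the block. With 2 arrays per group, the call at a single time was lost without some single arrays: at 2 h without the first 0 h array or either 2 h array, at 4 h without the first 0 h or first 4 h array, and at 8 h without either 0 h array or the second 8 h array. Adjusted p then ran from 0.0529 to 0.115, with rises between 1.15 and 1.87, while the mean over the times kept its call without any 1 array. On the deposited scale, without normalization between arrays or a term for the run, the rise over the mean was 1.39 and was not called, and with the run as a block it was called. The median change of all genes on that scale was -0.26.

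The region just before the most upstream RefSeq start of Bcl2l1 (GRCm38.p6, chr2:152831729-152831978, minus strand) is shown because this was the one member whose RNA rose. It was searched, with those of the other members, for the palindromic glucocorticoid receptor element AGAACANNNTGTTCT and for the single arm TGTTCT, which lies within it, on both strands. No letters are in capitals, since neither was found.
Bcl2l1 start 1: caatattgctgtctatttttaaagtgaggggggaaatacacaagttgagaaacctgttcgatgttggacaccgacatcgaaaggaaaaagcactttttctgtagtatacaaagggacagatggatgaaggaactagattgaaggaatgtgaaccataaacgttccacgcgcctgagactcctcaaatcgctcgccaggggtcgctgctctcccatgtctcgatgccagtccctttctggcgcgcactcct
The 2 other listed starts lie downstream of it on the same strand, with windows at chr2:152830718-152830967 and chr2:152828490-152828739. RefSeq gave windows of 250 bases for 8 of the 9 members, 15 in all. The full element was in 0 of these 15 and in 3 of all 32851 windows (0.00913%), and the single arm was in 0 of 15 and in 16.1% of all. This says only that these letters are not in these windows.

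In AtT-20 no member was called at any time. The background there was 0.0907% of genes at 2 h, 0.171% at 4 h, 0.121% at 8 h and 0.181% over the mean of 2 and 4 h, which a block for the run raised to 0.323%, 0.857%, 0.444% and 0.756%. No member had an unadjusted p under 0.05 in any of these 4 comparisons (3.42% of all genes did over the mean). The level of Bcl2l1 in AtT-20 was 8.33 and 7.71 at 0 h, 8.50 and 8.08 at 2 h, 8.31 and 8.16 by 4 h, then 8.22 on the single 8 h array. Treated and control arrays overlapped. Its change over the mean of 2 and 4 h was 0.25 ± 0.231, with a 95% interval of -0.26 to 0.75 that does not reach the rise in 3134. Over those same 2 times the response of 3134 exceeded that of AtT-20 by log2 1.50 ± 0.327 (95% interval 0.78 to 2.21). That difference was not called without the run in the fit (adjusted p = 0.0767) and was called with the run as a block (adjusted p = 0.00217). The background for this comparison was 0.645% of genes, and 2.73% with the block.

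Bcl2 itself, the founding survival gene, read lower on the treated arrays of 3134, but the difference did not pass the threshold. Its level was 8.51 and 8.97 at 0 h, 8.38 and 8.73 at 2 h, 8.11 and 8.41 by 4 h, then 8.31 and 8.17 at 8 h. Within a run, each of the 6 treated arrays of 3134 lay below its own 0 h array (-0.80 to -0.12). The treated arrays of a run share that 1 control, here and below, so such counts are not independent. Across runs the groups overlapped at 2 h and separated at 4 and 8 h. The mean change was -0.39 ± 0.173 (95% interval -0.76 to -0.01, unadjusted p = 0.0456, adjusted p = 0.522, and 0.12 with the run as a block). At 8 h the change was -0.50 ± 0.211 (adjusted p = 0.381, and 0.0816 with the block). With the block, Bcl2 was called at 8 h on arrays centred on their medians (-0.58, adjusted p = 0.0456), and on the deposited scale at 4 h (-0.83, adjusted p = 0.0483) and 8 h (-0.89, adjusted p = 0.0169). On the deposited scale the median of all genes was itself -0.31 at 4 h and -0.37 at 8 h.

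In AtT-20 the Bcl2 level was 11.27 and 11.35 at 0 h, 11.30 and 11.43 at 2 h, 11.39 and 11.79 by 4 h, then 11.64 at 8 h. Each of the 5 treated arrays lay above the 0 h array of its run, by 0.03 to 0.44. The change over the mean of 2 and 4 h was 0.16 (95% interval -0.24 to 0.56). The responses of the lines differed by -0.49 ± 0.259 (95% interval -1.06 to 0.07), which was not called (adjusted p = 0.308 with the run as a block). So the opposite directions within runs are a description, and these arrays did not resolve a difference.

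Mcl1, a survival gene whose protein turns over quickly, showed small differences. In 3134 it was 10.83 and 10.81 at 0 h, 11.12 and 10.95 at 2 h, 11.01 and 11.03 by 4 h, then 11.31 and 11.07 at 8 h. All 6 treated arrays lay above both controls, by small amounts. The mean change was 0.26 ± 0.132 (95% interval -0.03 to 0.55, adjusted p = 0.651), and it was -0.01 on the deposited scale. In AtT-20 the 5 treated arrays lay between 10.03 and 10.43 around controls of 10.26 and 10.13, and the mean change was 0.10 (95% interval -0.21 to 0.40).

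**Figure D2:**
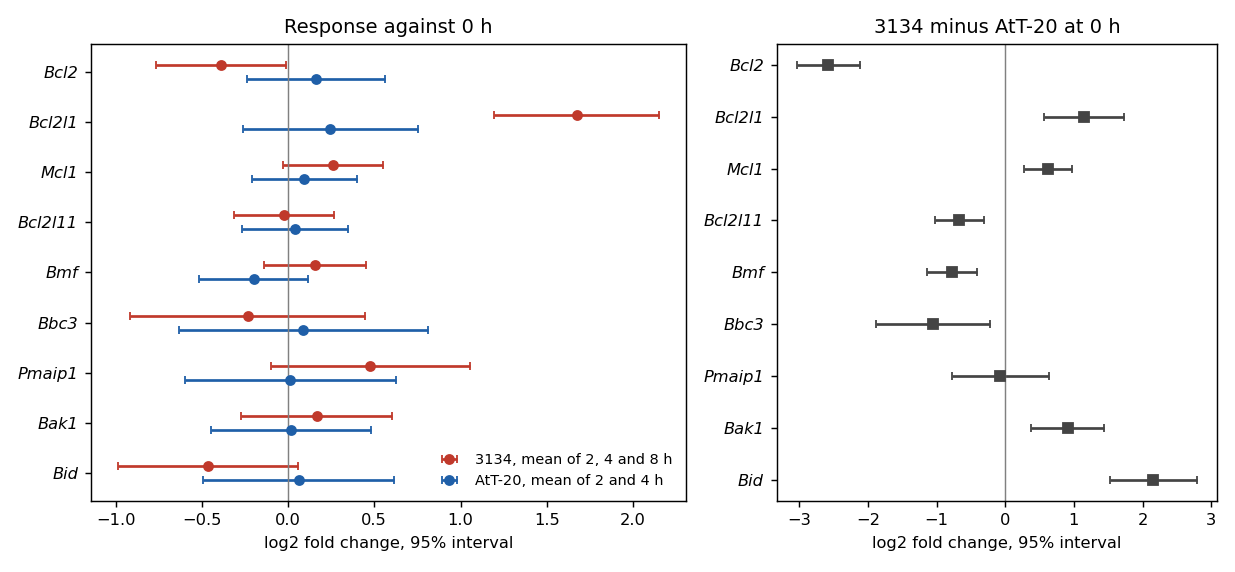
Log2 fold changes with 95% intervals from limma (horizontal axes) for the 9 BCL2 family genes (vertical axes). The left panel gives the mean response of 3134 over 2, 4 and 8 h (red) and of AtT-20 over 2 and 4 h (blue) against 0 h. The right panel gives 3134 minus AtT-20 at 0 h. The interval of Bcl2l1 in 3134 (1.20 to 2.15) lies clear of all others on the left, and on the right only the interval of Pmaip1 includes 0.

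The BH3-only genes showed no called change in either line with the gene median and no run in the fit. Bid, which links death receptors to mitochondria once caspase 8 has cut it, was called after dexamethasone only in fits with the run as a block. Its level in 3134 was 10.32 and 9.71 at 0 h, 9.77 and 9.32 at 2 h, 9.75 and 9.13 by 4 h, then 9.93 and 9.42 at 8 h. The first run lay above the second at every time, so that the groups overlapped, while within a run all 6 treated arrays were lower than their control (-0.58 to -0.29). The mean change was -0.46 ± 0.239 (adjusted p = 0.664). With the run as a block Bid fell over the mean (adjusted p = 0.0193) and at 4 h (-0.58, adjusted p = 0.02), where 6.55% and 5.19% of all genes were called. In AtT-20 the Bid level lay between 7.57 and 8.12 on all 7 arrays and its mean change was 0.06 (95% interval -0.49 to 0.61). The difference between the responses was -0.59 ± 0.359 and was not called in either fit (adjusted p = 0.0856 with the block).

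Bcl2l11, the gene of BIM, was not called at any time in either line. In 3134 it was 8.45 and 8.64 at 0 h, 8.22 and 8.35 at 2 h, 8.45 and 8.46 by 4 h, then 8.79 and 8.87 at 8 h. Both 2 h arrays were below, and both 8 h arrays above, every 0 h array. The level at 8 h exceeded that at 2 h by 0.55 ± 0.162 (unadjusted p = 0.00577), a difference that was not called after adjustment (adjusted p = 0.338, and 0.0768 with the run as a block). No member was called between 8 h and 2 h, where the background was 0.0907% of genes (2% with the block). In AtT-20, Bcl2l11 lay between 9.06 and 9.37 on all 7 arrays, with a mean change of 0.04 (95% interval -0.27 to 0.35).

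Bbc3, a gene best known as a target of p53, followed a similar course in 3134 with a wider spread. Its level was 7.08 and 6.13 at 0 h, 6.49 and 5.37 at 2 h, 6.68 and 6.17 by 4 h, then 6.96 and 6.57 at 8 h. The first run was higher at each time, 5 of the 8 arrays were below log2 6.59, and the groups overlapped. Between 2 h and 8 h the level differed by 0.83 ± 0.381 (adjusted p = 0.677). This difference was called under 2 other settings, the mean over probesets in place of the median (0.91, adjusted p = 0.0168) and arrays centred on their medians with the run as a block (0.96, adjusted p = 0.0185). In AtT-20 its 7 arrays lay between 7.35 and 8.02.

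Bcl2l11 and Bbc3 are both known targets of FOXO transcription factors, and they were the only members whose promoter windows held either of the FOXO motifs searched, GTAAACA and GTCAACA, on both strands. The motif GTAAACA was in 2 of the 15 member windows (3.17% of all windows) and GTCAACA in 1 (2.07%). The surrounding bases are shown from RefSeq (GRCm38.p6) with the matched letters in capitals, which in Bbc3 read as the reverse complement. They lie at chr2:128125788-128125842 and chr2:128127382-128127438 for Bcl2l11 and at chr7:16310069-16310125 for Bbc3, all on the plus strand.
Bcl2l11 start with GTAAACA: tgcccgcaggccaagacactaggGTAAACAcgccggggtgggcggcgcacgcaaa
Bcl2l11 start with GTCAACA: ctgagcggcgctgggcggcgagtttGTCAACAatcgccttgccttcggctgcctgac
Bbc3: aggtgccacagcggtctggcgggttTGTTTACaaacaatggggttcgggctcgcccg
A match is a description of the letters and not evidence of binding.

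Bmf, whose protein is held at the cytoskeleton until it is released, was low in 3134. It was 6.79 and 6.68 at 0 h, 6.54 and 6.69 at 2 h, 7.30 and 6.91 by 4 h, then 7.01 and 6.90 at 8 h. Both arrays at 4 h and both at 8 h were above both controls. The change at 4 h was 0.37 ± 0.167 (unadjusted p = 0.0457, adjusted p = 0.574). In AtT-20 all 5 treated arrays were lower than their run's 0 h array (-0.33 to -0.13), around a mean change of -0.20 (95% interval -0.51 to 0.12). Pmaip1, which neutralises MCL1, was near or below the level for testing throughout, with 7 of 8 arrays of 3134 and 6 of 7 of AtT-20 below log2 6.59. Its 0 h arrays in 3134 read 5.50 and 6.55 and its 6 treated arrays 6.38 to 6.70. The mean change of 0.48 (95% interval -0.10 to 1.05) rested on the first of those controls, and without it the change was -0.05.

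Bak1, the only effector with a value, did not differ detectably after dexamethasone. Its 3134 arrays read 8.41 and 8.42 at 0 h, 9.03 and 8.52 at 2 h, 8.49 and 8.51 by 4 h, then 8.29 and 8.65 at 8 h. The first-run 2 h array stood above the rest. The mean change was 0.17 (95% interval -0.27 to 0.60) in 3134 and 0.02 (95% interval -0.44 to 0.48) in AtT-20.

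Before hormone the lines differed in most members. At 0 h, 8 of the 9 members were called between 3134 and AtT-20, beside 54.5% of all genes (66.8% with the run as a block), so most genes differ and a call here sets no member apart. Higher in 3134 were 4 members and 24.3% of all genes, and lower were 4 members and 30.3% of all genes. Of the survival genes, Bcl2l1 and Mcl1 were higher in 3134 and Bcl2 was lower. For Bcl2 the difference, 3134 minus AtT-20, was -2.57 ± 0.211, or 5.96-fold lower (adjusted p = 5.8e-07). Bcl2l1 was higher in 3134 by 1.14 ± 0.267 (2.21-fold, adjusted p = 0.00318) before any hormone, and every 3134 array of Bcl2l1 lay above every AtT-20 array. Mcl1 was higher by 0.62 ± 0.162 (adjusted p = 0.00614).

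The BH3-only genes split. Bcl2l11 was lower in 3134 (-0.67 ± 0.162, adjusted p = 0.00404), as were Bmf (-0.77 ± 0.167, adjusted p = 0.00192) and Bbc3 (-1.05 ± 0.381, adjusted p = 0.0339). Bid was higher in 3134 by 2.16 ± 0.293, 4.47-fold (adjusted p = 5.07e-05), and so was the effector Bak1, by 0.91 ± 0.245 (adjusted p = 0.00758). Pmaip1 did not differ detectably (-0.07, 95% interval -0.78 to 0.63). Bak1 lost its call without the first AtT-20 0 h array (0.67), and Bbc3 lost it without that array (-0.75) or without the second 3134 0 h array (-0.58). On the deposited scale, with no normalization and no block, 2 of the 8 members tested there stayed called, Bcl2 and Bid. The median difference of all genes was -0.10 after quantile normalization and 0.22 on the deposited scale. On that scale with the block, Bcl2l11 (-0.30, adjusted p = 0.354) and Bmf (-0.58, adjusted p = 0.056) still lost their calls, and with no filter on dim genes Bbc3 lost its call (adjusted p = 0.0541). The direction of these 8 differences held under every alternative run.

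The arrays carry probesets for single exons, so each gene value rests on 6 to 15 probesets and could hide unequal change. All 15 probesets of Bcl2l1 were higher in 3134 after dexamethasone (0.02 to 2.44), and of the 13 whose highest group mean reached log2 6.59, 12 were higher by over 1. The other 2, dim in every group, differed by 0.02 and 1.48. The probeset at 2.44 reached log2 6.59 only in treated 3134 groups (5.70 in 3134 at 0 h). So did the probeset at 0.30 (6.52 in 3134 at 0 h). Their places among the 13 therefore rest on the treated groups themselves. Unequal change among the probesets of Bcl2l1 was not called by limma's diffSplice F test (adjusted p = 0.0882, background 0.193% of 15025 genes). It was called with the run as a block (adjusted p = 0.000283), and not when probesets dim in every group were left out. For Bcl2, 9 of 10 probesets were lower in 3134 after dexamethasone, over a range of -0.63 to 0.02, and 9 of 10 were higher in AtT-20. For Bid, 8 of 9 were lower in 3134.

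Between the lines at 0 h, unequal difference among probesets was called for 3 of the 9 members, beside 20.8% of all genes: Bcl2 (adjusted p = 4.35e-06), Bak1 (0.00129) and Bid (0.00176). The Simes test over probesets called these 3 as well, beside 23.8% of all genes (0.2% for the response of 3134, where it called no member). For Bcl2, 9 probesets were lower in 3134 (-2.80 to -2.23) and the remaining probeset stood at 0.01, with a level of 7.89 in 3134 and 7.87 in AtT-20. For Bid, 1 probeset likewise stood at 0.02 and the other 8 were higher in 3134 by 0.72 to 3.55. All 7 probesets of Bak1 were higher in 3134, by 0.17 to 2.28. Which exons or transcripts these probesets read was not analysed here.

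**Figure D3:**
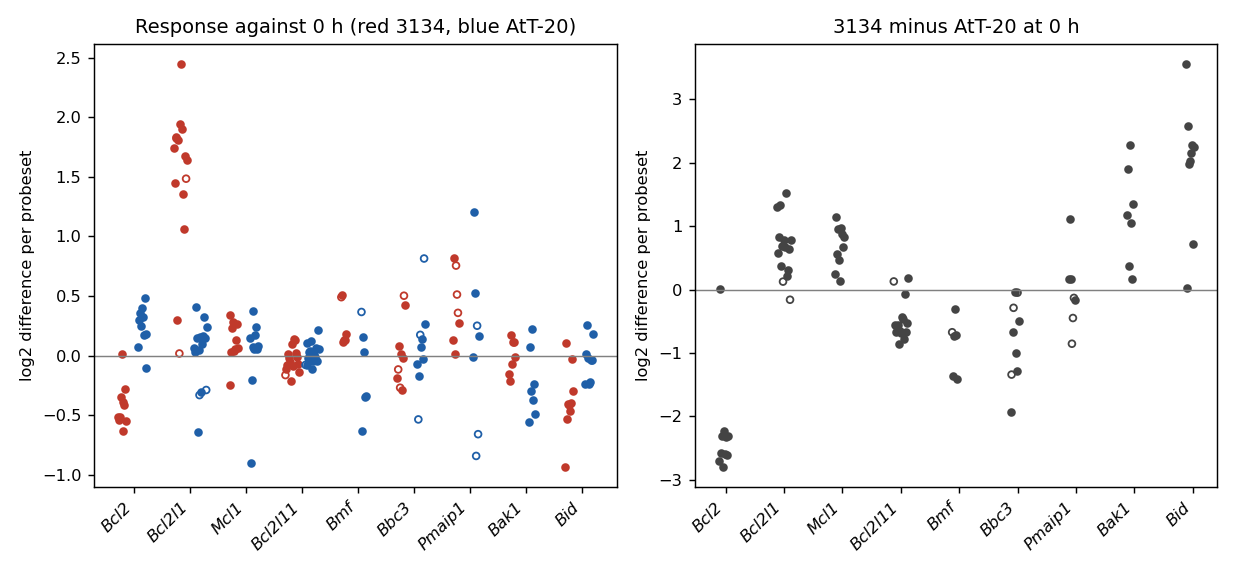
Log2 differences of single probesets (vertical axes) for each BCL2 family gene (horizontal axes). Left, mean response against 0 h in 3134 (red) and AtT-20 (blue). Right, 3134 minus AtT-20 at 0 h. Open points never reached log2 6.59 in any group mean. The Bcl2l1 probesets of 3134 reach 2.44 on the left, in a probeset that was at log2 6.59 or above only in treated 3134 groups. On the right 9 of 10 Bcl2 probesets lie below -2 with 1 at 0.01.

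The genes around the family were counted from lists of its known neighbours. Of 10 other BCL2 relatives tested, such as Bad, Bok and Bcl2l2, 0 were called in 3134 over the mean (median change 0.03, beside -0.02 for all genes, of which 2.42% were called). None was called of 13 genes that control the turnover of MCL1 and BIM protein (median -0.07), of 19 genes of the mitochondrial step and the caspases (-0.04), of 6 caspase inhibitors (-0.06) or of 9 death receptors and adaptors (-0.09). At an unadjusted limma p under 0.05 these lists held 1, 0, 0, 1 and 1 genes in that order, and 9.07% of all genes reached it. With the run as a block, Casp12 (0.45, adjusted p = 0.0431) and Cflar, a decoy that blocks caspase 8 (0.56, adjusted p = 0.00567), rose, and the adaptor Traf2 fell (-0.50, adjusted p = 0.0308). These 3 are named after their values were seen. In AtT-20 none of these 5 lists had a called gene in either fit, or a gene with an unadjusted p under 0.05.

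Of 17 transcription factors known to act on BCL2 family genes, 2 were higher and 2 lower in 3134 over the mean (median -0.10), where 2.42% of all genes were called (6.55% with the block). Whether this list stands apart from the others was not tested. It held 3 higher and 3 lower with the block, which added Foxo1 (0.63, adjusted p = 0.00715) and Atf4 (-0.53, adjusted p = 0.0485). Foxo3, which drives Bcl2l11 and Bbc3 when it is free to enter the nucleus, rose by 0.99 ± 0.157 (adjusted p = 0.00424). Ddit3, the stress factor CHOP, which is known to raise Bcl2l11 and to lower Bcl2, fell by 0.92 ± 0.18 (adjusted p = 0.0175). Nr3c1, the glucocorticoid receptor's own gene, fell by 0.69 ± 0.137 (adjusted p = 0.0181). Cebpb rose by 0.77 ± 0.179 (adjusted p = 0.0462), and it, Foxo1 and Atf4 are named after their values were seen. None of the 17 was called in AtT-20 over the mean of 2 and 4 h. There 1 of them, Nr3c1, had an unadjusted p under 0.05 (-0.37, limma unadjusted p = 0.0249), as did 3.42% of all genes. Foxo3 stood at 0.07 and Ddit3 at -0.36 in AtT-20.

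**Figure D4:**
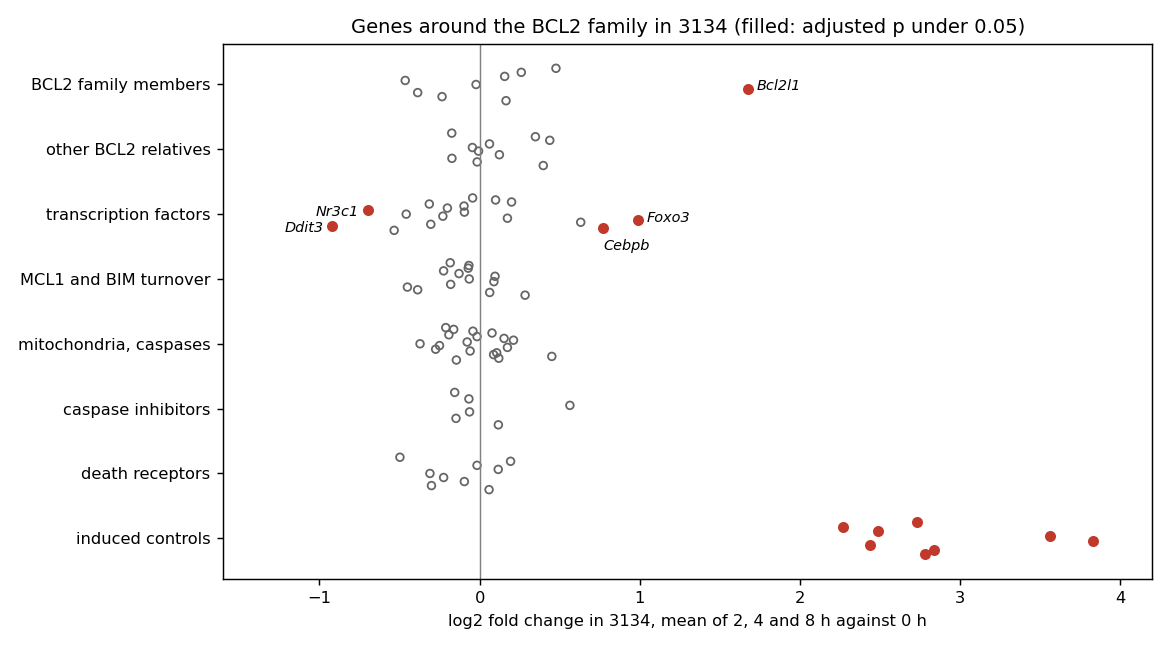
Log2 fold change in 3134 over the mean of 2, 4 and 8 h against 0 h (horizontal axis) for each tested gene of 8 lists (vertical axis). Each point is 1 gene, and filled red points were called at an adjusted p under 0.05. Bcl2l1 stands at 1.67 among its family, 4 transcription factors are filled, all 8 induced controls lie above 2, and every gene of the other lists is open.

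Between the lines at 0 h, where 24.3% of all genes were higher in 3134 and 30.3% lower, called genes of most of these lists lay on both sides. All called transcription factors were higher in 3134, and all called turnover genes were lower. Whether any list departs from those shares was not tested. Among the relatives, Bcl2l12 was higher in 3134 by 1.23 and the BH3-only gene Bad lower (-0.92), in all 2 higher and 4 lower of 10. Among caspase genes, Casp12 was higher by 6.09 and the executioner Casp6 lower, at -2.99 (4 higher and 6 lower of 19). Of 6 caspase inhibitors, 2 were higher and 2 lower, with Birc3 at -2.63 and Naip5 at -1.99. Of 9 death receptor genes, 2 were higher and 2 lower, with Faim2, which blocks Fas signalling, at -5.69 and Tnfrsf21 at -2.76. Of 17 transcription factors, 7 were higher in 3134, led by Myc (5.33) and Runx1 (4.03), and none was lower. Of 13 turnover genes, 3 were lower in 3134, among them the kinases Mapk8 (-1.33) and Mapk3 (-0.80), and none was higher.

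The genes whose response was most like that of Bcl2l1 were found by Pearson's r over the 11 treated arrays, each taken against the 0 h array of its line and run. They were Enc1 (r = 0.981), Net1 (r = 0.978) and Trib1 (r = 0.969). The arrays share their controls and fall into 2 lines, and r was not computed within a line. The mean responses of these genes differ from that of Bcl2l1: Enc1 stood at 0.10 in 3134 and -0.95 in AtT-20, Net1 at 1.39 and -0.06, and Trib1 at 0.71 and -0.33.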

How the data were processed

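Gene expression was measured on 15 mouse exon arrays, in 8 groups of line and time taken from the sample titles. The values deposited by the authors are log2 levels, 1 per probeset and array, for which the submitters' processing notes name RMA and the Affymetrix Expression Console. Software versions and genome build: not given in the sources used here. Of 228090 probesets, 207232 had 1 gene symbol in the platform annotation, 3882 several and 16976 none, and those with 1 were used. RefSeq (GRCm38.p6) held 14055 of the 16207 symbols as they stood, 2111 more under a newer symbol, and 41 were left unchanged.

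Deposited array medians differed by run (3134: 7.83 to 8.14 and 6.76 to 7.20. AtT-20: 7.51 to 7.86 and 6.93 to 7.22), so the arrays were quantile normalized with limma 3.58.1 under R 4.3.3, and tables were read through data.table (release 1.17.8). The highest correlation of any pair of arrays was 0.986. A gene's value was the median over at least 3 probesets. Genes were fitted with lmFit and eBayes on all 15 arrays (2-sided, 7 residual degrees of freedom, 5 with the run as a block), with Benjamini-Hochberg adjustment at 0.05. The lone AtT-20 8 h array was taken to vary as much as the rest. Precision is limited by how few arrays there are: the median SE was 0.215, and 0.264 for AtT-20 at 8 h. Unequal change among probesets was tested with limma's diffSplice.

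Whether the inferred run numbers pair the arrays was checked by correlating deviations from group means. The correlation was 0.491 to 0.591 in 9 pairs of the same line and run. It was 0.276 to 0.39 in 12 pairs of different lines with the same number. Arrays of a line and run were therefore treated as paired in the fits with the run as a block. The fit without the block, which gave the calls reported first, ignores this pairing. All times of a line are set against the same 0 h arrays. All members are named. From every other list were named up to 3 genes with the smallest p among those called in 3134, up to 2 in AtT-20 and up to 2 between the lines, with exceptions said. The members and lists were chosen with earlier results of these data known. The tests were also tried on simulated data. The alternatives concerned scaling, the block, the gene summary, the filter, the prior and leaving out arrays. Arrays were left out only in fits without the block, so their loss was not tried with the pairing kept.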

Additional observations from a re-analysis of the deposited data

Results flagged for a closer look

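The response of Bcl2l1 over 2 and 4 h was larger in 3134 than in AtT-20 by log2 1.50, and limma's test of that difference passed with the run as a block (adjusted p = 0.00217) and not without it (0.0767). It passed under 5 of 22 alternatives: each scale with the block, the mean over probesets, and brighter probesets. Refits that left out single arrays were made without the block only. The value lay between 1.19 and 1.81 over all 22, with adjusted p from 0.00019 to 1.00.

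The response of Bcl2 differed between the lines by -0.49. All 6 treated arrays of 3134 lay below, and all 5 of AtT-20 above, the 0 h array of their own run, which is what drew attention. The test of the difference itself was not passed (limma adjusted p = 0.308 with the block).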

How the results depend on the processing

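On the deposited scale with no replicate block, 0 members were called in 3134 at 2 h, 4 h, 8 h or over the mean (0.238% of all genes over the mean), and 2 between the lines (19.6%). That scale shifted the median of all genes by -0.24 over the mean in 3134 and by 0.32 between the lines. With the replicate block, which follows the pairing by run, 2 members were called at 4 h (5.19% of all genes) and 2 over the mean (6.55%). In the difference of responses it called 1 (2.73%). The probeset test with the block called 5 members between the lines and 1 in 3134 over the mean. For that test with the block the share of all genes was not computed, so these counts set no member apart. On the deposited scale with the block, 3 were called at 4 h (4.66% of all genes), 3 at 8 h (11.5%), 2 over the mean (5.35%) and 1 in the difference (1.42%). At 8 h that setting called 126 of all genes higher and 1037 lower, against 163 and 54 with the quantile normalized arrays and no block. Over the mean it called 157 and 384, against 178 and 62, and between the lines 3335 and 2123, against 2407 and 3001. Centred arrays with the block called 2 at 4 h (5.58%), 2 at 8 h (9.4%), 2 over the mean (6.69%), 1 between 8 h and 2 h (3.42%) and 1 in the difference (2.81%). The mean over probesets called 1 between 8 h and 2 h (0.779%) and 1 in the difference (1.4%), and brighter probesets 1 in the difference (0.355%). The added calls were Bid at 4 h and over the mean under each scale with the block, Bid at 8 h on the deposited scale with the block, Bcl2 at 8 h with the block on centred arrays (-0.58, adjusted p = 0.0456) and at 4 and 8 h on deposited values, Bbc3 between 8 h and 2 h, and Bcl2l1 in the difference. Leaving out 1 array gave 0 to 1 members at 2 h, 4 h and 8 h. The cause of these changes was not tested. Of the members' single values under the alternatives, 1365 kept their side of the threshold, 17 gained a call, 24 lost it, and 0 calls changed direction. Changes near 0 that were not called, such as those of Mcl1, Bak1 and Bbc3, did turn sign under some settings. Weak signal limits Pmaip1, Bbc3 and Bmf most.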
